A study of Mus musculus with 56 samples.

Results

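Genes of the translation initiation and elongation factors were described in CD8 T cells that recognise a fetal and graft antigen (TFGS). Members were the protein-coding genes of the deposited count table whose symbol begins with Eif1 to Eif6 or Eef1 to Eef2, without the sex-linked pair *Eif2s3x* and *Eif2s3y*. This gave 85 of the 55359 genes in the table, of which 66 passed the filter on low counts and 19 did not. The 19 were *Eef1a2*, *Eef1akmt3*, *Eef1ece2*, *Eif4a3l1*, *Eif4e1b* and 14 copies of *Eif1ad* on chromosome 12, and their highest value in any sample was 5.5 CPM, a count scaled to the size of its library. The rule used no measured value.

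The study asked how pregnancy alters naive and memory T cells specific for the fetus. TFGS were sorted as CD8 T cells that bind an OVA:Kb tetramer, from the pooled spleen and lymph nodes of female C57BL/6 mice bought at 8 to 12 weeks of age. Naive mice had neither graft nor pregnancy, and Sensitized mice had received an allogeneic skin graft from 2W-OVA.BALB/c donors, which carry the OVA transgene. Naive post-partum mice (N+P) had carried a semi-allogeneic pregnancy and gave subset C1 (PD1-) and subset C5 (PD1+CD73+). Sensitized post-partum mice (S+P) had received the graft before that pregnancy and gave C4 (PD1-), C5 (PD1+CD73+) and C7 (PD1+CD73-). After the steps below, there were 3 samples each of N+P C1, N+P C5 and Naive, 4 of Sensitized, 6 each of S+P C5 and S+P C4, and 5 of S+P C7. The labels give no PD1 or CD73 gate for Naive and Sensitized cells, so a contrast of a post-partum subset with them may also differ in the gate. In RNA from a fixed number of sorted cells, fewer cells that carry an mRNA and less of it per cell cannot be told apart.

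Translation begins when a ternary complex of eIF2, GTP and initiator tRNA joins the small ribosomal subunit with eIF1, eIF1A, eIF3 and eIF5. The eIF4F complex (eIF4E, eIF4G and eIF4A) brings the mRNA, and eIF5B joins the large subunit. eEF1A then delivers each aminoacyl-tRNA, the eEF1B subunits recharge eEF1A with GTP, and eEF2 moves the ribosome along by a codon. In T cells these steps are regulated by kinases of the eIF2 alpha subunit, by the eIF4E binding proteins under mTORC1, and by the eEF2 kinase, which inactivates eEF2.

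The 56 libraries, each made from 200 sorted cells with SmartSeq2, held 6636530 to 32625200 counts with 7436 to 25514 genes detected, and members took 1.08% to 2.74% of a library's counts. A library with the same counts in Naive replicate 1 and S+P C4 replicate 1 was left out of both, and nearly identical libraries of S+P C7 replicates 1 and 2 were averaged and counted as 1 sample, which left 30 samples. Under 9000 genes were detected in replicate 3 of S+P C7 and in replicates 2 and 3 of S+P C4. In the labels, replicates 2 and 3 of S+P had 1 library per subset, where the other replicates had 2. In S+P C5 those replicates held 12416 and 12652 detected genes. Naive replicate 1 (12829 detected genes) and S+P C4 replicate 1 (12383) also rested on 1 library each, once the identical library was left out. All 7 markers of CD8 T cells reached 1 CPM in each group, with a summed level of 5397 to 9327 CPM per sample. Markers of CD4 T cells (*Cd4*, *Foxp3*) summed to at most 4.45 CPM and those of B cells to at most 62.8 CPM, while erythroid markers reached 16510 CPM in 1 S+P C7 sample, plasma cell markers 1895 CPM and dendritic cell markers 509 CPM in 1 S+P C7 sample each, and myeloid markers 345 CPM in 1 Sensitized sample. The 3 NK markers were *Ncr1*, *Klrb1c* and *Eomes*. They summed to 0.0823 to 55.4 CPM in Naive, 38.1 to 66.6 CPM in N+P C5, 99.3 to 227 CPM in Sensitized and 107 to 202 CPM in S+P C5. The study reports EOMES protein induced more in the clusters of most S+P TFGS than in N+P TFGS, so this sum does not mark NK cells alone. The part of these markers in the values below was not tested.

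The mRNAs of many elongation factors, like those of ribosomal proteins, are known to start with a run of C and T that links their translation to mTORC1. The bases around the annotated start are shown for the elongation factors described below and for *Eif3f*, which has the longest run within the windows shown. Each window holds 30 bases on the gene's strand, 10 before the start of the canonical transcript and 20 from it on, read from GRCm39 with GENCODE M39, with the longest run of C or T in capitals.
Eef1a1 (chr9:78388987-78389016, minus strand): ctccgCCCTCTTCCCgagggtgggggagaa
Eef1b2 (chr1:63215974-63216003, plus strand): ttggacctgcagTTCCgccggaagtagccg
Eef1d (chr15:75781962-75781991, minus strand): CTCCacccagctggtccaaaaaccagcgca
Eef1g (chr19:8944395-8944424, plus strand): cccctcgCTTTTTCCaactcagcggggctg
Eef2 (chr10:81012455-81012484, plus strand): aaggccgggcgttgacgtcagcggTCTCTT
Eif3f (chr7:108533611-108533640, plus strand): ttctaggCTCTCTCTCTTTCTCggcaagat
Within the window, the run was 15 bases long in *Eif3f*, 10 in *Eef1a1*, 8 in *Eef1g*, 6 in *Eef2* and 4 in *Eef1b2* and *Eef1d*. The runs of *Eef2* and *Eef1d* reach an edge of the window, so they may be longer than the length given. Here and in the shares below, the run could lie anywhere in the window, so it need not stand at the start of the mRNA. That of *Eef1d* lies wholly before the annotated start, and those of *Eef1b2* and *Eef2* begin after it. A run of at least 8 bases stood in the windows of 11 of the 66 members tested (16.7%) and of 2577 of 21770 protein-coding genes (11.8%). The letters describe the annotated start only, and the start that these cells use was not measured.

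Levels of the members spanned a wide range per length of transcript. *Eef1a1*, which encodes the main form of eEF1A, was the highest at 3604 CPM per kb of canonical transcript, as the mean over the 30 samples. It was followed by *Eif1*, which guards the choice of the start codon, at 492 CPM per kb, and by *Eif5a*, whose product relieves stalled ribosomes, at 389 CPM per kb. The eEF1B gamma subunit gene *Eef1g* and the eIF3 subunit gene *Eif3k* stood at 312 CPM per kb each, and the eEF1B beta subunit gene *Eef1b2* at 287 CPM per kb. These 3 neighbours in the order lay closer to each other than their spread over samples, whose coefficients of variation were 36.8%, 46.4% and 43.4%. At the other end, *Eef2k*, the eEF2 kinase gene, averaged 0.563 CPM per kb and *Eif4ebp3*, an eIF4E binding protein gene, 0.146 CPM per kb. *Eif1* varied least among the highest 6, with a coefficient of variation of 18.5% over all samples.

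No member passed both thresholds, a log2 fold change beyond 0.9 in either direction and an adjusted p below 0.1, in edgeR's quasi-likelihood test in any of the 10 contrasts. In Sensitized against Naive the count was 0 of 66 against 0.153% of all 19657 genes tested. At an unadjusted p under 0.05 it was 0 against 7.82%, and in DESeq2 it was 0 against 5.48%. In N+P C5 against Naive no member was called (0.0407% of all genes), *Eif5a* alone was under the unadjusted 0.05 (5.33% of all genes), and DESeq2 called 0 (5.08%). In S+P C5 against Sensitized no member was called (0.0712%), 2 were under the unadjusted 0.05 (13.0%), and DESeq2 called 1 (4.98%). The 2 were *Eef2k* and *Eif4ebp3*, and the 1 was *Eef2k*. The share of members under that p was below the share of all genes in this contrast.

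edgeR called no member in the other contrasts. For S+P C7 against Sensitized, 0 members were called by edgeR (0.0305% of all genes), 3 were under the unadjusted 0.05 (10.2%) and DESeq2 called 0 (3.78%). N+P C1 against Naive had 0 (0%), 0 (3.23%) and 0 (3.79%) in the same order, and S+P C4 against Sensitized had 0 (0.00509%), 1 (12.7%) and 0 (4.63%). Between the subsets, N+P C5 against N+P C1 had 0 (0.00509%), 0 (4.31%) and 0 (4.23%), and S+P C7 against S+P C5 had 0 (0%), 3 (12.7%) and 0 (2.80%). S+P C5 against N+P C5 had 0 (0%), 4 (5.88%) and 1 (3.85%), the 1 being *Eef2k*. The difference between the pregnancy contrasts, S+P C5 against Sensitized minus N+P C5 against Naive, had 0 (0.0254%), 2 (6.42%) and 0 (4.17%).

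The median log2 fold change over the 66 members was −0.13 for Sensitized against Naive, where it was 0.04 over all genes tested, and 40 members lay below 0. It was −0.15 in N+P C5 against Naive, where the median of all genes was 0 and 44 members lay below 0. S+P C5 against Sensitized had −0.13 against −0.01 for all genes, with 39 members below 0. The error of a single member was large: the median width of its 95% interval was 3.55 log2 units in Sensitized against Naive, and 8 of the 66 intervals lay within 1 log2 unit of 0. For 56 of the members in that contrast the interval reached a fold change of −0.9, so a change of the size of the threshold was not excluded. In S+P C5 against Sensitized the median width was 3.00 and 15 intervals lay within 1 log2 unit of 0. When libraries were scaled by their size alone, the median of all genes in Sensitized against Naive moved to 0.18, and the members split into 31 above 0 and 33 below, against 24 and 40 in the main scaling. For N+P C5 against Naive that scaling gave 31 above 0 and 34 below, with a median of −0.01.

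**Figure D1:**
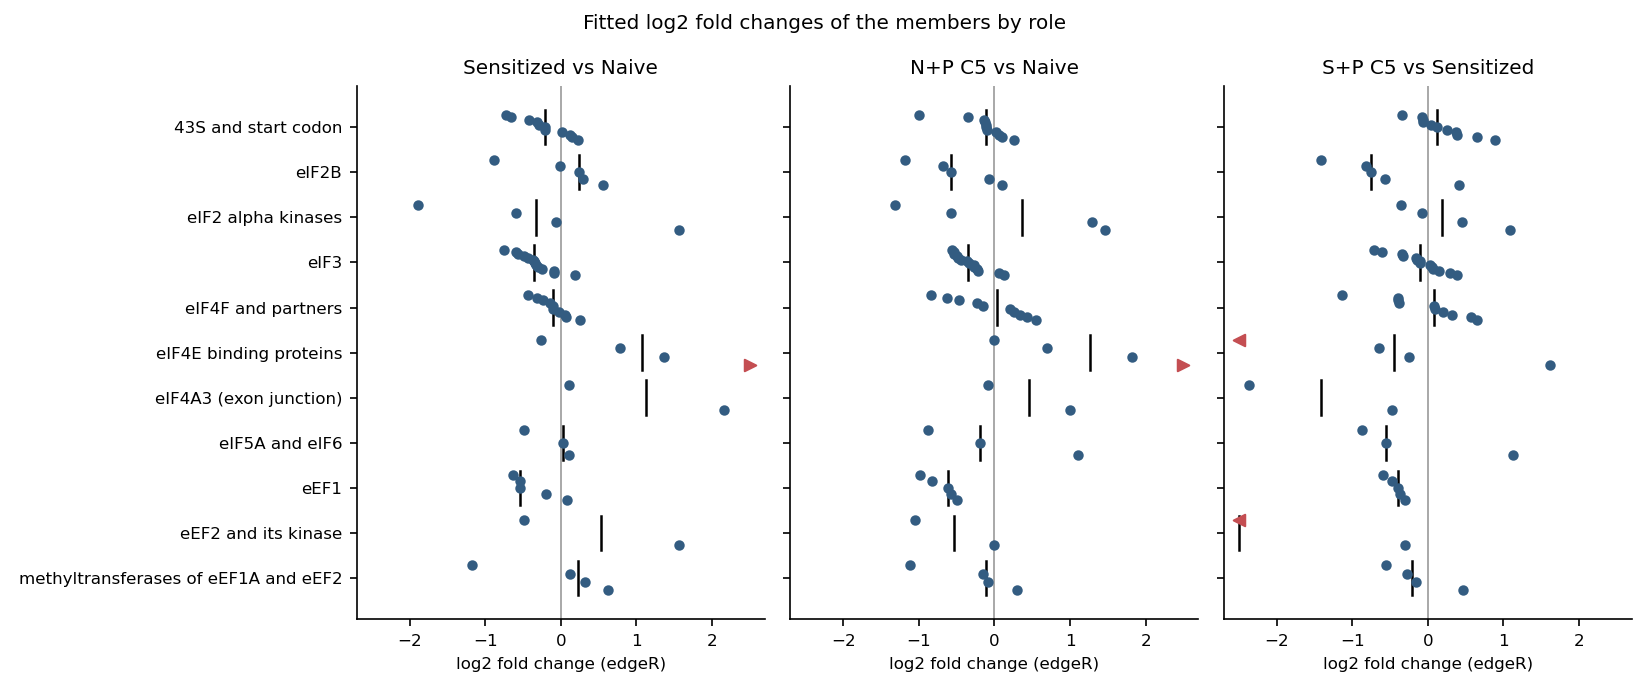
Fitted log2 fold change (horizontal axis, edgeR) of each tested member, in rows by role, for the contrasts named above each panel. Points are genes, black bars are medians of a role, and red triangles are genes beyond 2.5 log2 units. The 5 genes of the eEF1 role lay below 0 in both pregnancy contrasts, while no gene passed the test in any panel.

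The means of *Eef1a1*, *Eef1b2* and *Eef1g*, the abundant eEF1 genes, were lower in every other group than in Naive, but none passed the test. N+P C1 was the nearest to Naive, with *Eef1a1* means of 9582 and 9950 CPM. *Eef1a1* read 10680, 10480 and 8688 CPM in the Naive samples. It read 8486, 5760, 7107 and 6063 CPM in Sensitized, and 9184, 5576 and 5228 CPM in N+P C5. The Sensitized samples all lay below the Naive ones, and N+P C5 replicate 1 overlapped them. *Eef1a1* in S+P C5 ran from 1965 to 6585 CPM with a median of 5605, which overlapped Sensitized. N+P C1 lay at 13120, 8340 and 7285 CPM, on both sides of the Naive range.

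The fitted difference of *Eef1a1* was −0.54 on the log2 scale (SE 0.28, 95% interval −1.11 to 0.04, edgeR adjusted p 0.627) in Sensitized against Naive. edgeR gave −0.58 (adjusted p 0.765) for N+P C5 against Naive and −0.48 (adjusted p 0.389) for S+P C5 against Sensitized. *Eef1b2*, which reloads eEF1A with GTP, read 894, 920 and 835 CPM in Naive and 623, 477 and 397 CPM in N+P C5, with no overlap. Its Sensitized values of 706, 578, 494 and 503 CPM were also all below Naive. The fitted differences of *Eef1b2* were −0.63 in Sensitized and −0.82 in N+P C5 against Naive, with edgeR adjusted p of 0.745 and 0.765.

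*Eef1g*, the scaffold subunit of eEF1B, read 1096, 857 and 779 CPM in Naive against 762, 612, 491 and 633 CPM in Sensitized, again without overlap. In N+P C5 it read 835, 589 and 363 CPM, of which the first lay inside the Naive range. *Eef1d*, the eEF1B delta subunit gene, which was chosen after its values were seen, overlapped between Naive (445, 267 and 270 CPM) and Sensitized (357, 202, 354 and 231 CPM). The role as a whole took in these 4 genes and *Eef1e1*, which was placed in it by its symbol. It had 4 of 5 tested genes below 0 in Sensitized against Naive, and 5 of 5 in each pregnancy contrast (N+P C5 against Naive, then S+P C5 against Sensitized). The medians of these 3 contrasts were −0.54, −0.61 and −0.39, with 0 genes called by edgeR in each and 0 at an unadjusted p under 0.05.

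**Figure D2:**
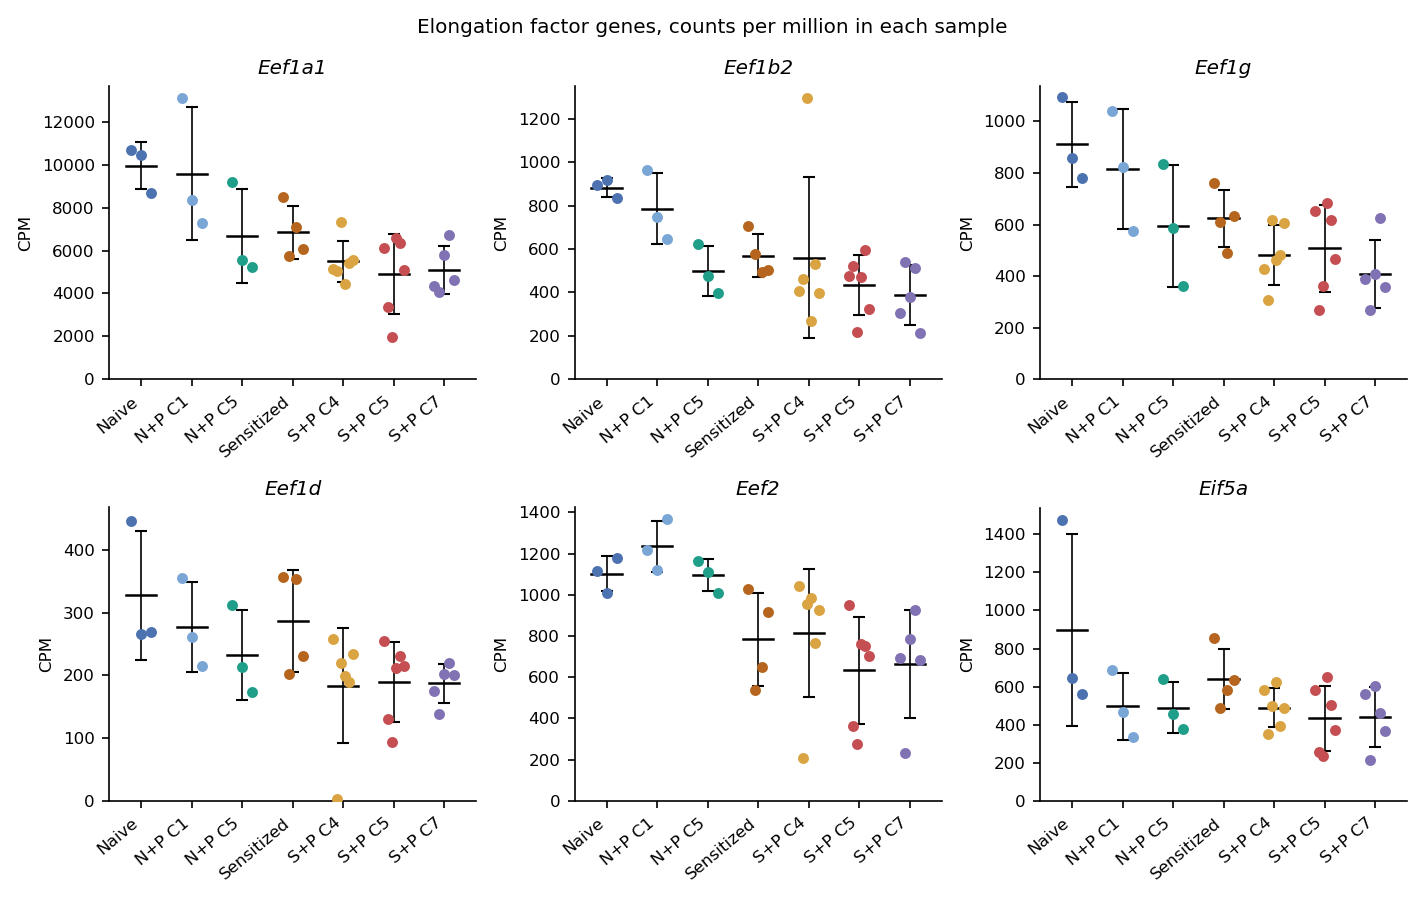
CPM of 6 elongation factor genes (vertical axes, linear from 0) in each of the 30 samples by group, with horizontal bars for the mean and whiskers for the SD. The Naive samples of *Eef1a1*, *Eef1b2* and *Eef1g* lie above all Sensitized samples, and *Eef1b2* in S+P C4 has 1 sample at 1297 CPM.

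Summed over the 6 eEF1 genes, a sample held 10620 to 13180 CPM in Naive, 8773 to 15550 in N+P C1, 6167 to 11000 in N+P C5 and 7253 to 10380 in Sensitized. The sum was 5445 to 9449 CPM in S+P C4, 2666 to 8001 CPM in S+P C5 and 5232 to 8130 CPM in S+P C7. All S+P samples therefore lay below the Naive range. The 85 ribosomal protein genes are given beside them. They summed to 118800 to 140500 CPM in Naive and to 62160 to 81880 CPM in N+P C5. Of the 84 tested, 82 lay below 0 in N+P C5 against Naive with a median of −0.77, and 82 in Sensitized against Naive with a median of −0.61. Set against Sensitized, S+P C5 had 57 of 84 below 0, with a median of −0.17. None of the ribosomal protein genes passed both thresholds in edgeR in these 3 contrasts. At an unadjusted p under 0.05, 27, 13 and 7 of them lay below 0 in the order just given, against 413, 783 and 1517 of all 19657 genes. The study, which used DESeq2, reports ribosome pathway genes lowered in N+P C5 against Naive, and not changed in S+P C5 against Sensitized. For N+P C5 against Naive, edgeR called 8 of all genes here and DESeq2 998, so the edgeR count is no like comparison with the study's. In S+P C4 against Sensitized, 56 of 84 ribosomal protein genes lay above 0 (median 0.11). Of the 5 tested genes of the eEF1 role, 0 lay above 0 there (median −0.32). The S+P C4 ribosomal protein sums were 114600 and 173100 CPM in replicates 2 and 3, of few detected genes, the latter above the Naive range. In the rest of S+P C4 they ran from 52690 to 68000 CPM, against 63000 to 100500 CPM in Sensitized. The part of the few-gene samples in this split was not tested.

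**Figure D3:**
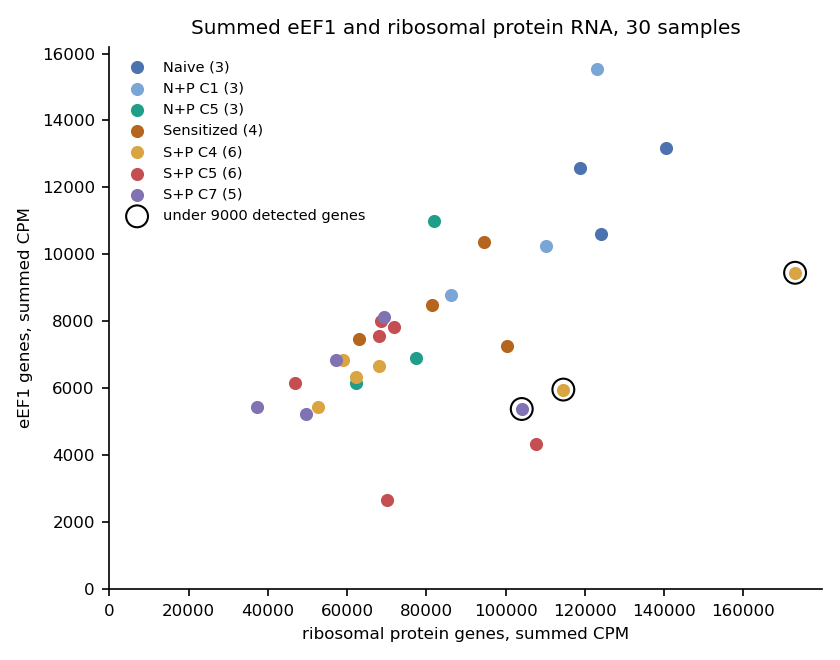
Summed CPM of the eEF1 genes (vertical axis) against summed CPM of 85 ribosomal protein genes (horizontal axis) in the 30 samples, colored by group, with circles around the 3 samples under 9000 detected genes. Naive samples sit above all S+P samples in the eEF1 sum, and the circled samples have higher ribosomal protein sums than the other samples of their groups.

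*Eef2*, whose product drives translocation, had lower values in S+P C5 than in N+P C5, but the difference was not called. It read 1114, 1011 and 1179 CPM in Naive, 1216, 1122 and 1366 CPM in N+P C1, and 1163, 1109 and 1011 CPM in N+P C5. Sensitized samples held 1028, 539, 651 and 915 CPM, and S+P C5 samples 952, 361, 276, 761, 751 and 704 CPM. All 6 S+P C5 samples lay below all 3 N+P C5 samples. The fitted difference was −0.79 (SE 0.38, 95% interval −1.56 to −0.02, unadjusted p 0.0459, edgeR adjusted p 0.844). *Eef2* differed by −0.01 between N+P C5 and Naive, with an interval of −0.92 to 0.91.

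*Eef2k* (chr7:120441877-120506674 on GRCm39), whose product inactivates eEF2, was at or near 0 in every S+P C5 sample. Of the 6 samples, 5 held no count and replicate 4 held 2 counts (0.0598 CPM). Sensitized samples read 0, 30.2, 6.46 and 4.67 CPM, so replicate 1 of that group was also at 0. Against a floor of 3 counts per library, the S+P C5 mean was at least 107-fold lower than the Sensitized mean of 10.3 CPM. Without Sensitized replicate 2, which held the highest value, that bound was 38.4-fold. edgeR gave an unadjusted p of 0.00142 and an adjusted p of 0.277, which was 0.528 without that replicate, and DESeq2 gave an adjusted p of 0.00074.

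*Eef2k* was low in the other S+P subsets too. In S+P C7 it read 0, 0, 4.36, 0 and 0.0489 CPM, and in S+P C4 it read 0 in 4 of 6 samples with 2.51 and 10.01 CPM in the others. N+P C1 held 20.9, 5.47 and 11.7 CPM, N+P C5 2.98, 0.497 and 1.55 CPM, and Naive 0, 6.46 and 4.00 CPM. All N+P C5 samples lay below all N+P C1 samples. S+P C5 was at least 17.4-fold lower than N+P C5 (edgeR unadjusted p 0.00959, adjusted p 0.809, DESeq2 adjusted p 0.0955), and at least 10.6-fold lower without N+P C5 replicate 1. S+P C7 was at least 9.13-fold higher than S+P C5 (edgeR adjusted p 0.278), which rested on replicate 4 alone, since the rest of S+P C7 averaged under the floor. The difference of the pregnancy contrasts for *Eef2k* had an unadjusted p of 0.0348 and an edgeR adjusted p of 0.707.

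**Figure D4:**
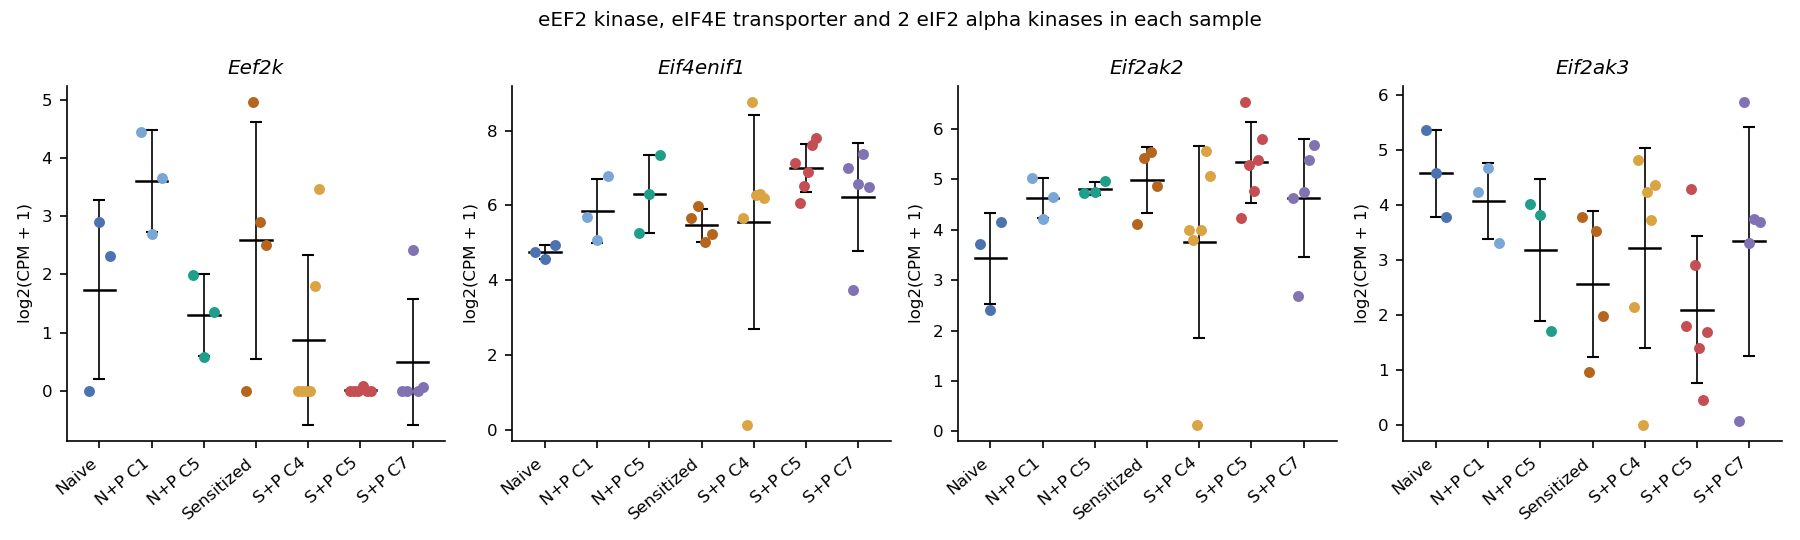
log2(CPM + 1) of *Eef2k*, *Eif4enif1*, *Eif2ak2* and *Eif2ak3* (vertical axes) in each sample by group, with bars for the mean and whiskers for the SD. *Eef2k* lies at or near 0 in all 6 S+P C5 samples, and *Eif4enif1* lies above the Naive samples in every Sensitized, N+P and S+P C5 sample.

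Of the 11 genes of the 43S complex and start codon choice, 7 lay below 0 in Sensitized and 7 in N+P C5, each against Naive, and 4 when S+P C5 was set against Sensitized, with medians of −0.21, −0.11 and 0.12. With library size alone 7, 2 and 1 lay below 0, with medians of −0.09, 0.08 and 0.20, so the direction against Naive turned for N+P C5. *Eif2s1*, which encodes the eIF2 alpha subunit, read 219, 204 and 149 CPM in Naive and 129, 111 and 46.9 CPM in N+P C5, without overlap. The fitted difference was −0.996 (SE 0.97, edgeR adjusted p 1). In N+P C1 it read 175, 195 and 169 CPM, all above N+P C5. *Eif5*, which makes eIF2 hydrolyse GTP at the start codon, had 927 and 1279 CPM in the S+P C4 samples with few genes detected and 318 to 436 CPM in the other 4. Its difference from Sensitized was 0.79 (SE 0.36, unadjusted p 0.0342, edgeR adjusted p 0.352), and 0.12 with the few-gene samples left out. *Gm58608* and *Snora28* overlap *Eif5* on the same strand.

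eIF2B reloads eIF2 with GTP, and the median of its 5 subunit genes was 0.23 in Sensitized against Naive, −0.58 when N+P C5 was set against Naive and −0.75 for S+P C5 against Sensitized, with 0 called by edgeR and 0 at an unadjusted p under 0.05. *Eif2b5*, the catalytic subunit gene, read 75.9, 46.8 and 36.4 CPM in Naive and 48.5, 51.7 and 70.0 CPM in N+P C5, which overlapped. Among the eIF2 alpha kinases, *Eif2ak2*, which responds to double-stranded RNA, read 12.2, 4.34 and 16.9 CPM in Naive and 25.6, 26.0 and 30.2 CPM in N+P C5. The groups did not overlap, and the fitted difference was 1.29 (SE 1.07, 95% interval −0.88 to 3.46, edgeR adjusted p 1). Sensitized *Eif2ak2* values of 16.4, 42.1, 45.4 and 28.2 CPM overlapped Naive in 1 sample.

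*Eif2ak3*, the kinase of the unfolded protein response, ran the other way. It read 39.9, 22.8 and 12.7 CPM in Naive and 12.7, 0.950, 10.5 and 2.91 CPM in Sensitized, where the highest Sensitized value lay just under the lowest Naive one. The fitted difference was −1.90 (SE 1.47, edgeR adjusted p 0.967). *Eif2ak4*, which senses uncharged tRNA, ranged from 0.659 to 17.0 CPM in Naive and from 13.7 to 48.3 CPM in N+P C5, which overlapped (difference 1.46, SE 1.54).

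The eIF3 complex scaffolds the small subunit, and 13 of its 14 genes lay below 0 in Sensitized against Naive, with a median of −0.35. Against Naive, N+P C5 had 12 of 14 below 0, with a median of −0.35, and S+P C5 had 8 of 14 below 0 against Sensitized, with a median of −0.11. None was called by edgeR in the 3 contrasts and none reached an unadjusted p under 0.05, and with library size alone 11, 12 and 8 lay below 0. *Eif3a*, the largest subunit gene, read 428, 306 and 379 CPM in Naive, 287, 237 and 277 CPM in N+P C5, and 173, 203, 190 and 312 CPM in Sensitized. N+P C5 lay wholly below Naive, while 1 Sensitized sample reached it. In S+P C7 *Eif3a* read 210, 750, 302, 360 and 316 CPM, the 750 being replicate 3 with few genes detected. Its difference from Sensitized was 0.82 (SE 0.38, unadjusted p 0.0377, edgeR adjusted p 0.473), and 0.44 without that sample and the few-gene samples of S+P C4. *Eif3e* and *Eif3h*, named after their values were seen, ran from 415 to 456 and from 361 to 434 CPM in Naive and from 201 to 340 and from 234 to 356 CPM in Sensitized, with no overlap. *Eif3k* read 402, 279 and 276 CPM in Naive and 336, 162, 286 and 251 CPM in Sensitized, which overlapped.

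Of the 10 tested genes of eIF4F and its partners, 7 lay below 0 in Sensitized against Naive, 5 when N+P C5 was set against Naive and 4 for S+P C5 against Sensitized, with medians of −0.11, 0.03 and 0.09. With library size alone 4, 5 and 4 lay below 0, and the first median turned to 0.05. *Eif4a1* and *Eif4a2* encode the helicase. *Eif4a2* read 525.7, 686 and 595 CPM among Naive samples, 542, 607 and 557 CPM in N+P C1, and 403, 370 and 401 CPM in N+P C5, which lay below both. Its difference of −0.62 from Naive had an SE of 0.36 and an edgeR adjusted p of 0.771. *Eif4a1* overlapped, with 219, 405 and 334.5 CPM in Naive and 348, 306 and 207 CPM in N+P C5. Per kb, the ratio of *Eif4a1* to *Eif4a2* had a median of 0.777 in Naive, 0.600 in S+P C4 and 1.14 in N+P C5, and the Naive and N+P C5 ranges overlapped. Small nucleolar RNA genes lie on the same strand inside *Eif4a2*.

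*Eif4g1*, the scaffold gene of eIF4F, read 119, 151 and 127 CPM in Naive against 70.0, 108 and 109 CPM in N+P C5, with no overlap (difference −0.46, SE 0.47). *Eif4e*, the cap binding gene, read 151, 106 and 70.5 CPM in Naive and 129, 84.7 and 66.0 CPM in N+P C5, which overlapped. *Eif4e* in S+P C5 ran from 106 to 276 CPM and in Sensitized from 74.4 to 129 CPM, with a difference of 0.65 (SE 0.88). *Eif4b*, a helper of the helicase named after its values were seen, ran from 150 to 212 CPM in S+P C5 and from 78.6 to 132 CPM in Sensitized, without overlap (difference 0.57, SE 0.82, edgeR adjusted p 1).

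Among the genes whose products bind eIF4E, *Eif4enif1* (chr11:3152235-3194588) stood highest per length. It encodes the eIF4E transporter, which carries eIF4E into the nucleus and represses mRNAs, and it was named after its values were seen. It read 25.8, 22.6 and 29.9 CPM in Naive, 49.4, 62.3, 31.2 and 36.4 CPM in Sensitized, and 37.1, 78.3 and 160 CPM in N+P C5. S+P C5 samples held 139, 66.3, 89.9, 117, 194 and 221 CPM. Every Sensitized and N+P C5 sample lay above every Naive sample, and every S+P C5 sample above every Sensitized sample.

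The fitted differences of *Eif4enif1* were 0.78 in Sensitized against Naive (SE 1.00), 1.82 for N+P C5 against Naive (SE 1.09) and 1.62 for S+P C5 against Sensitized (SE 0.88, 95% interval −0.18 to 3.42). The edgeR adjusted p-values were 1, 0.784 and 0.478 in that order. With the 3 samples of few detected genes left out, the adjusted p of the last was 0.0405, and the log2 difference was 1.65. In S+P C4 those samples were the extremes, at 0.104 and 432 CPM, while the other 4 ran from 49.6 to 78.4 CPM. N+P C1 read 50.6, 32.8 and 109 CPM, also above Naive.

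*Eif4ebp1*, *Eif4ebp2* and *Eif4ebp3* encode the eIF4E binding proteins under mTORC1. *Eif4ebp1* read 0, 16.6 and 2.49 CPM in Naive, 17.8, 26.8, 12.4 and 8.54 CPM in Sensitized, and 7.71 to 12.5 CPM in S+P C5. *Eif4ebp2* read 57.7, 69.4 and 123 CPM in Naive and 83.2, 83.9 and 82.0 CPM in N+P C5, and its S+P C5 samples (34.9 to 77.0 CPM) all lay below N+P C5. *Eif4ebp3* was at 0 in 26 of 30 samples. Its p in S+P C5 against N+P C5 (0.0106 unadjusted, 0.809 adjusted by edgeR) rested on N+P C5 replicate 1 at 1.64 CPM. That made S+P C5 at least 5.65-fold lower, while without the sample both groups were at 0. When S+P C5 was set against Sensitized, its p (0.0407 unadjusted, 0.350 adjusted by edgeR) rested on Sensitized replicate 4 at 0.312 CPM, the one sample of these groups above 0. The mean of Sensitized and all of S+P C5 were under the floor for this gene, and *Maskbp3* overlaps it on the same strand, so its reads are uncertain.

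*Eif5a* read 1478, 647 and 564 CPM in Naive and 638, 455 and 375 CPM in N+P C5, which overlapped in 1 sample. The fitted difference was −0.87 (SE 0.42, 95% interval −1.74 to −0.01, unadjusted p 0.0469, edgeR adjusted p 0.765). It was −0.31 without Naive replicate 1, the sample at 1478 CPM, which rested on 1 library. *Eif5a* in S+P C5 ran from 235 to 652 CPM and in Sensitized from 486 to 854 CPM, with a difference of −0.56 (SE 0.33, adjusted p 0.548). *Eif6*, which keeps the large subunit from joining early, read 170, 81.7 and 82.9 CPM in Naive and 123, 88.0 and 83.3 CPM in N+P C5. S+P C5 values ran from 1.78 to 143 CPM, with replicates 2 and 3, of 1 library each, at 14.7 and 1.78 CPM. Those replicates were also the lowest of S+P C5 for *Eif5a*, *Eef1a1* and *Eef2*.

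Counts of members whose samples did not overlap are given with the same share over all genes. In Sensitized against Naive 1 member lay wholly higher (3.78% of all genes) and 6 wholly lower (3.81%). The 6 were *Eef1a1*, *Eef1b2*, *Eef1g*, *Eif2ak3*, *Eif3e* and *Eif3h*. Against Naive, N+P C5 had 2 higher (7.40%) and 9 lower (5.48%), and S+P C5 against Sensitized had 2 higher (1.45%) and 0 lower (1.42%). N+P C5 against N+P C1 had 2 higher (5.48%) and 6 lower (5.29%), among them *Eef1b2*, *Eef1e1*, *Eif2s1*, *Eif4a2* and *Eif4g1*, which were also wholly lower than Naive. Both contrasts share the N+P C5 samples. S+P C5 against N+P C5 had 0 higher (0.967%) and 3 lower (1.70%), which were *Eef2*, *Eef2k* and *Eif4ebp2*.

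Copies of *Eif1ad* on chromosome 12 were at 0 in most samples. *Eif1ad15* held counts in 2 of 5 S+P C7 samples, at 0.618 and 3.28 CPM, and in 2 samples of other groups, at 0.621 CPM in N+P C5 and 0.237 CPM in S+P C4. S+P C7 was at least 8.36-fold higher than Sensitized, where no count was found, and at least 1.66-fold without replicate 6. edgeR gave it an unadjusted p of 0.0245 and an adjusted p of 0.473, and reads that map to several copies were removed by the authors, so these values are uncertain.

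Genes of related steps outside the family were read from lists. None of the 5 genes of the eIF2 alpha phosphatase, 2 of eIF5A hypusination, 13 of mTORC1 signalling to eIF4F, 9 of mitochondrial translation, 8 of poly(A) binding and scanning or 8 tested of termination and recycling was called by edgeR in Sensitized or N+P C5 against Naive, nor in S+P C5 against Sensitized, and none reached an unadjusted p under 0.05 there. The mTORC1 list had a median of 0.38 with 11 of 13 above 0 in Sensitized against Naive, and of −0.40 with 10 of 13 below 0 in S+P C5 against Sensitized. All 8 poly(A) binding and scanning genes lay above 0 in S+P C5 against Sensitized, with a median of 0.30. For scale, technical libraries of 1 replicate and subset differed by a median of 0.424 log2 units over the members (22 pairs), and libraries of different replicates of a group by 0.546 (155 pairs).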

How the data were processed

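RNA of 56 libraries from 7 sorted groups was analysed. The table deposited by the authors holds raw counts, with no normalization. Per the submitters' processing notes and the study's methods, reads were trimmed with cutadapt 3.4, aligned to GRCm39 with STAR 2.6.1b, cleared of reads mapping to several places and counted with featureCounts 2.0.1. Genes with near-identical copies (*Eef1a1*, the *Eif1ad* copies) can therefore be undercounted. Which strand setting and which gene annotation the counting used are not given in the sources used here, so overlapping and antisense genes are uncertain. GENCODE M39 named 54749 of the 55359 genes. No reads carried molecular identifiers, so the floor of 3 counts covers counting error only.

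Technical libraries of 1 replicate and subset were summed. A library with identical counts in Naive and S+P C4 was left out of both groups, and a pair of S+P C7 libraries (r 0.999 on log2 CPM, against at most 0.953 between libraries of 1 replicate and subset) was averaged. Replicates are the labels' numbers, and the labels do not say that each is a separate mouse, so p-values measure the spread between these samples. CPM were scaled by TMM. Contrasts were tested with edgeR 4.0.16 (two-sided quasi-likelihood test, robust fit to the 7 groups together, TMM, and filterByExpr at a minimum of 10 counts) with Benjamini-Hochberg adjustment over 19657 genes. Calls needed a log2 fold change beyond 0.9 in either direction and an adjusted p below 0.1. Intervals of 95% came from the fold change and its F statistic. DESeq2 1.42.0 was the alternative tool, in R 4.3.3 with data.table at version 1.17.8. The study itself used DESeq2 with these thresholds. In N+P C5 against Naive, DESeq2 called 998 of 19657 genes here, where edgeR called 8. Python 3.11.15, pandas 2.3.3, numpy 2.4.6 and matplotlib 3.10.9 made tables and plots. The fit was tested on simulated data.

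Members, role lists and pathway lists were chosen with earlier results of these data known. Members were named with values if past both thresholds (none), if among the 4 smallest unadjusted p under 0.05 per direction in the 3 main contrasts or the 2 smallest in the others, if among the 6 highest per length, or if on a list of 18 regulators and core factors. Members outside this rule are marked as named after their values were seen, or stand only among those whose groups did not overlap. Alternatives changed the scaling, filter, tool, treatment of libraries, thresholds and samples. Among the contrasts tested, every pair of equal replicate numbers had deviations correlated above 0.1 only in S+P C7 against S+P C5 (r 0.123 to 0.192 over 5 pairs). In N+P C5 against N+P C1, 2 of 3 pairs did (r 0.0226 to 0.102).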

Additional observations from a re-analysis of the deposited data

Results flagged for a closer look

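For the 26 named members, 100 combinations of a gene and a group of 4 to 10 samples were searched for a sample far from the rest of its group. Dixon's criterion was used, which chance alone passes in about 1 of 20 groups of normally spread values. That rate does not apply where all but 1 sample were at 0, since any count then passes. This held for *Eef2k* in S+P C5, *Eif1ad15* in S+P C4, and *Eif4ebp3* in Sensitized and S+P C7. The criterion flagged 23 values, given here in CPM.

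In S+P C4 the samples of few detected genes held most of them. Replicate 3 was highest for *Eef1b2* at 1297, *Eif3k* at 790 and *Eif4enif1* at 432, and lowest for *Eif3a* at 64.2. Replicate 2 was lowest for *Eef1d* at 2.5, *Eef2* at 208 and *Eif4g1* at 33.0. Replicate 6 was highest for *Eef2k* at 10.01 and replicate 5 for *Eif1ad15* at 0.237.

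In S+P C7 replicate 3, also of few detected genes, was highest for *Eif2ak3* at 57.3, *Eif3a* at 750, *Eif4a1* at 456, *Eif4a2* at 728 and *Eif5* at 1028. Replicate 4 was highest for *Eef2k* at 4.36, replicate 6 for *Eif1ad15* at 3.28 and replicate 1 for *Eif4ebp3* at 0.0464.

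In S+P C5 replicate 2 was highest for *Eif2ak3* at 18.5, replicate 3 was highest for *Eif2ak4* at 52.2 and lowest for *Eif3k* at 51.4, and replicate 4 was highest for *Eef2k* at 0.0598. In Sensitized replicate 2 was highest for *Eif4g1* at 150.5 and replicate 4 for *Eif4ebp3* at 0.312.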

How the results depend on the processing

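The count of called members stayed at 0 in all 90 combinations of a contrast and 1 left-out sample (0 to 0). It also stayed at 0 in 134 of 140 combinations of a contrast and another alternative. In S+P C5 against Sensitized it was 1 with DESeq2, 1 with only the groups compared, 2 with technical libraries as separate samples (which counts libraries of 1 replicate as independent) and 2 with the samples under 9000 detected genes left out. It was 1 in S+P C7 against S+P C5 with separate libraries and 1 in S+P C5 against N+P C5 with DESeq2. These calls were *Eef2k* in S+P C5 against Sensitized with DESeq2 (log2 fold change −9.97, adjusted p 0.00074), separate libraries (−9.84, adjusted p 0.0132) and few-gene samples left out (−9.55, adjusted p 0.0771), in S+P C7 against S+P C5 (6.06, adjusted p 0.0994) and in S+P C5 against N+P C5 (−7.39, DESeq2 adjusted p 0.0955). The others were *Eif4enif1* with separate libraries (1.86, adjusted p 0.0525), few-gene samples left out (1.65, adjusted p 0.0405) and only the groups compared (1.64, adjusted p 0.0843), by edgeR. The causes were not tested. *Eif4ebp3* in S+P C5 against N+P C5 was 0 without N+P C5 replicate 1, since both groups then held no count, and ran to −7.78 without another sample.

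With a replicate block and only the groups compared, 0 members were called in every contrast, and members at an unadjusted p under 0.05 numbered 11 of 62 in N+P C5 against Naive (8.45% of all genes tested in that fit), 9 of 62 in N+P C5 against N+P C1 (8.78%) and 7 of 62 in Sensitized against Naive (5.65%). Only subsets within N+P or within S+P can share a mouse, so in the contrasts with Naive the block joined unrelated mice by number. Deviations of equal numbers correlated there at r 0.00586 to 0.0479 (N+P C5) and 0.0136 to 0.0666 (Sensitized). In S+P C7 against S+P C5, where every pair correlated above 0.1, 1 member of 61 was under the unadjusted 0.05 (2.39%). The main fit had 3 of 66 (12.7%), but it also differs in the groups used. Against the main fit the block changed no call. *Eif4enif1* in S+P C5 against Sensitized was called with only the groups compared (edgeR adjusted p 0.0843) but not with the block added.

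The pooled SD between replicates of the members' median log2 level, 0.568, was larger than the median log2 fold change in each contrast, so a shift below that SD says nothing about stability. Over the other alternatives that median ran from −0.22 to −0.03 in Sensitized against Naive, −0.20 to −0.01 in N+P C5 against Naive, −0.25 to −0.03 in S+P C5 against Sensitized, −0.52 to −0.004 in S+P C4 against Sensitized and −0.34 to −0.01 in S+P C7 against Sensitized. Without 1 sample it ran from −0.22 to −0.10 in Sensitized against Naive, −0.32 to −0.08 in N+P C5 against Naive and −0.19 to −0.05 in S+P C5 against Sensitized. Depth limits genes under about 1 CPM, such as *Eif4ebp3* and the *Eif1ad* copies.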
